A study of Mus musculus with 10 samples.

Results

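Cytochrome c oxidase genes were examined in limb muscle of foetal mice. They were taken by symbol: every gene whose symbol starts with Cox and a digit, together with Sco1, Sco2, Surf1, Ndufa4, Ndufa4l2, Coa3, Coa5, Coa6, Coa7, Pet100 and Taco1. This gave 42 of the 55401 genes in the table: 14 nuclear-encoded subunits in their general or muscle isoform, 6 other isoforms and relatives, 18 assembly factors and 4 pseudogenes or copies. Of these, 38 were among the 13363 genes with an FPKM of 1 or more in at least 5 libraries, the filter for the tests, where FPKM is the fragment count of a gene divided by its transcript length and by the mapped fragments of the library.

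The study asked how maternal hyperglycaemia acts on foetal muscle. Limb muscle of ICR mice was collected at embryonic day 18.5 and sequenced in 10 libraries, 5 from GDM foetuses (GDM1 to GDM5) and 5 from CTR foetuses (CTR1 to CTR5). The dams of the GDM group, a model of gestational diabetes mellitus, were injected with streptozotocin, which destroys insulin-producing beta cells, at gestational days 6.5 and 12.5, and the dams of the CTR group received buffer. The study describes the foetuses as male, but sex and litter are not in the sample labels, so p-values reflect the spread between samples only. Skin and bones had been removed and no cells were sorted, so the libraries hold every cell type of the limb muscle.

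Cytochrome c oxidase, or complex IV, is the last enzyme of the respiratory chain: it takes electrons from cytochrome c, passes them to oxygen and pumps protons across the inner mitochondrial membrane. Its catalytic core is made of 3 subunits encoded by mitochondrial DNA (mt-Co1, mt-Co2 and mt-Co3), and the surrounding subunits are encoded in the nucleus. Several nuclear subunits exist as a general isoform and as an isoform of heart and skeletal muscle that takes over during development, and many assembly factors bring copper and heme A into the core.

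Estimated depth was 17.5 to 20.8 M fragments per GDM library and 14.4 to 16.5 M per CTR library, so every GDM library was deeper. Mitochondrially encoded genes took 9.43 to 12.3% of the summed FPKM in GDM and 16.3 to 18.98% in CTR. The muscle identity of the tissue was checked with 21 muscle fibre markers, which were all tested and whose summed FPKM was 22506 to 31170 in GDM and 38364 to 45613 in CTR. Summed fat cell markers reached 61.7 to 80.5 FPKM in GDM and 356 to 2040 in CTR, with CTR2 highest. The median log2 fold change over all tested genes was 0.15 (GDM over CTR, on the scale of log2(FPKM + 1), which understates changes of genes with low FPKM). Median ratio scaling, which divides each library by the median ratio of its genes to their mean over libraries, moved that median by -0.15, so scaled values are given where they change the call of a cytochrome c oxidase gene.

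The nuclear-encoded subunits were lower in GDM muscle. Of the 14 subunits in their general or muscle isoform, 12 fell and none rose (limma, Benjamini-Hochberg adjusted p under 0.05 over all genes tested), with a median log2 fold change of -0.57. Among all tested genes 10.9% were called lower and 35.1% higher. The calls were also 12 lower and 0 higher after median ratio scaling, where 18.9% of all genes were called lower and 19.7% higher. The summed FPKM of the 14 subunits was 1951 to 2321 in the GDM libraries and 2804 to 3766 in the CTR libraries, so the groups did not overlap. In a whole tissue, fewer cells of a type and less RNA per cell cannot be told apart.

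**Figure D1:**
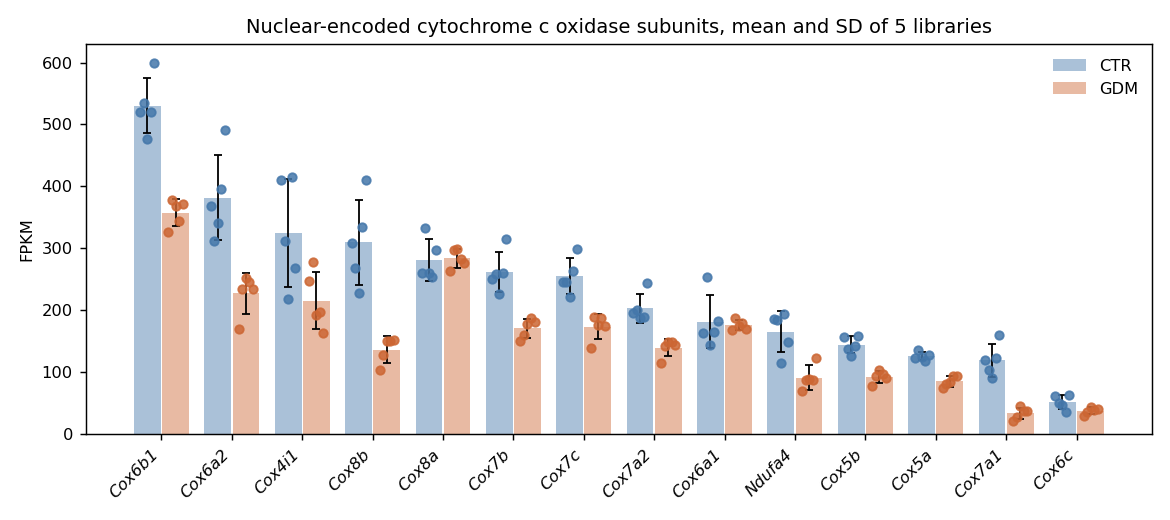
FPKM of the 14 nuclear-encoded subunits in general or muscle isoform, ordered by their CTR mean. Bars are group means of 5 libraries, error bars are SD and points are single libraries. Cox6b1 was the highest in both groups, and only Cox8a had a GDM mean (283.8 FPKM) above its CTR mean (281 FPKM), within the spread of the libraries.

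All 3 muscle isoforms fell, and Cox7a1 and Cox8b had the most negative log2 fold changes of all subunits. Cox7a1 (ENSMUSG00000074218, GRCm38 chr7:30184144-30186078, plus strand) encodes the heart and muscle isoform of subunit VIIa, which is also known from brown fat. Its FPKM was 21.7, 27.5, 45.4, 37.2 and 36.7 in GDM1 to GDM5 and 120.2, 103, 90.0, 123 and 161 in CTR1 to CTR5. Every GDM library was below every CTR library, with GDM1 and GDM2 lowest and CTR5 highest. The group means were 33.7 ± 9.23 and 119.4 ± 26.6 FPKM (SD, n = 5 each), and the log2 fold change was -1.81 (SE 0.20, limma adjusted p = 8.9e-05). After median ratio scaling the log2 fold change was -1.99.

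Cox8b (ENSMUSG00000025488, chr7:140898945-140900446, minus strand) encodes the heart and muscle isoform of subunit VIII and is likewise known from brown fat. It had 103, 128, 151, 150.2 and 151 FPKM in GDM1 to GDM5 and 308, 268, 228, 334 and 410.2 FPKM in CTR1 to CTR5. Again the groups did not overlap, and GDM1 was the lowest library and CTR5 the highest. Cox8b changed by -1.16 on the log2 scale (SE 0.16, limma adjusted p = 0.00029). Its single annotated transcript is 360 bases long, and the estimated depth puts 649 to 2351 fragments behind each of its values.

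Cox6a2 (ENSMUSG00000030785, chr7:128205435-128206387, minus strand) encodes the muscle isoform of subunit VIa. Its FPKM was 170.2, 235, 251.7, 245 and 235 in GDM1 to GDM5 and 369, 312, 340.2, 396 and 491 in CTR1 to CTR5, or about 2031 to 5316 fragments. All GDM libraries lay below all CTR libraries, and GDM1 stood below the other GDM libraries. Cox6a2 changed by -0.74 on the log2 scale (SE 0.14, limma adjusted p = 0.0015). It shares 70 exonic bases with Itgad on the opposite strand.

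All 3 muscle isoforms therefore had a GDM range entirely below the CTR range, as did 7.43% of all tested genes. Their summed FPKM was 295 to 448 in GDM and 658 to 1062 in CTR. Of the 21 muscle fibre markers 15 fell and 1 rose, the embryonic myosin gene Myh3, with a median of -0.52. Of the 9 fat cell markers tested 8 fell, with a median of -3.46. Among all tested genes 10.9% were called lower and 35.1% higher. Ucp1, which defines brown fat cells, was at 0.0001 to 0.105 FPKM in GDM and 0.0001 to 7.88 FPKM in CTR, where 0.0001 is the value the file lists for no signal. CTR2, with the highest fat cell sum, was below CTR1, CTR4 and CTR5 in Cox7a1 and Cox8b and the lowest CTR library in Cox6a2. Without CTR2 the log2 fold changes were -1.86 for Cox7a1, -1.21 for Cox8b and -0.81 for Cox6a2. Leaving out CTR2 does not match the groups, since the lowest fat cell sum was 356 FPKM in CTR and the highest 80.5 in GDM. The part of cell type content in these changes was not tested.

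The general partners of the muscle isoforms differed among themselves. Cox6a1 (ENSMUSG00000041697, chr5:115345642-115348981, minus strand), the general isoform of subunit VIa, had 168, 188, 174, 179 and 170.3 FPKM in GDM1 to GDM5 and 163, 253, 143, 166 and 183 FPKM in CTR1 to CTR5. The GDM range lay inside the CTR range, in which CTR2 was the highest. Its log2 fold change of -0.02 (95% interval -0.31 to 0.27, limma adjusted p = 0.92) was not called, and it was 0.11 without CTR2.

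Cox8a (ENSMUSG00000035885, chr19:7215153-7217616, minus strand), the general isoform of subunit VIII, had 263, 298, 299, 283 and 277 FPKM in GDM1 to GDM5 and 261, 333, 261, 254 and 297 FPKM in CTR1 to CTR5. The GDM range lay inside the CTR range. A log2 fold change of 0.02 (95% interval -0.16 to 0.21, limma adjusted p = 0.86) was not called, and it was -0.16 after median ratio scaling, also not called.

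Cox7a2 (ENSMUSG00000032330, chr9:79755361-79759878, minus strand), the general isoform of subunit VIIa, did fall. It had 116, 142, 149.5, 148 and 143 FPKM in GDM1 to GDM5 and 196, 201, 188, 189 and 244 FPKM in CTR1 to CTR5. All GDM libraries were below all CTR libraries, with GDM1 set low and CTR5 set high. Cox7a2 changed by -0.54 on the log2 scale (SE 0.09, limma adjusted p = 0.0011).

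**Figure D2:**
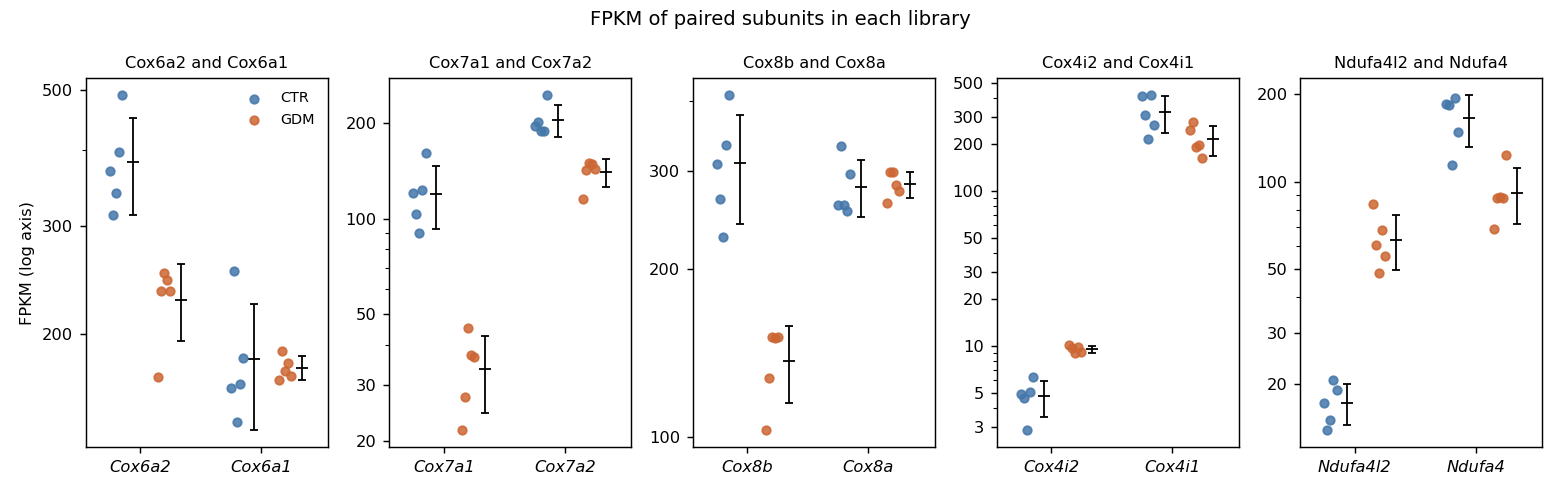
FPKM (log axes, a scale for each panel) of 5 pairs of subunits in each of the 5 CTR and 5 GDM libraries, with group mean and SD beside the points. The GDM libraries lie below all CTR libraries for Cox6a2, Cox7a1, Cox8b and Cox7a2, above all of them for Cox4i2 and Ndufa4l2, and overlap with them for Cox6a1, Cox8a, Cox4i1 and Ndufa4.

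Ratios of a muscle isoform to its general partner within a library do not depend on how libraries are scaled against each other, apart from the pseudocount. They can still depend on the cell types in a library, and that part was not tested. The ratio of Cox7a1 to Cox7a2 was 0.187, 0.194, 0.303, 0.251 and 0.256 in GDM1 to GDM5 and 0.614, 0.514, 0.479, 0.652 and 0.657 in CTR1 to CTR5. Without any overlap of the groups, Cox7a1 made up 15.8 to 23.3% of the pair in GDM and 32.4 to 39.7% in CTR. The difference of the mean log2 ratios was -1.27 (SE 0.16, two-sided exact permutation p = 0.0079, adjusted over 5 ratios p = 0.0099), and 0.0079 is the smallest p that 5 against 5 allows.

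The ratio of Cox8b to Cox8a was 0.391, 0.428, 0.505, 0.531 and 0.547 in GDM1 to GDM5 and 1.18, 0.804, 0.874, 1.32 and 1.38 in CTR1 to CTR5. Cox8b was thus below Cox8a in all 5 GDM libraries and above it in CTR1, CTR4 and CTR5. The difference in log2 was -1.18 (SE 0.18), with the same smallest exact permutation p of 0.0079.

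The ratio of Cox6a2 to Cox6a1 was 1.01, 1.25, 1.45, 1.37 and 1.38 in GDM1 to GDM5 and 2.26, 1.23, 2.37, 2.39 and 2.69 in CTR1 to CTR5. The muscle isoform was the higher of the pair in all libraries, and CTR2 lay within the GDM range. The difference in log2 was -0.72 (SE 0.22, exact permutation p = 0.040, adjusted p = 0.040). Without CTR2 it was -0.92 with an exact permutation p of 0.0079, and without CTR1, CTR3, CTR4 or CTR5 it was -0.70, -0.68, -0.68 and -0.64 with an exact permutation p of 0.056 each. This ratio therefore depended on which CTR libraries were included, whereas the ratios of Cox7a1 and Cox8b stayed at the smallest possible p in every leave-one-out run.

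**Figure D3:**
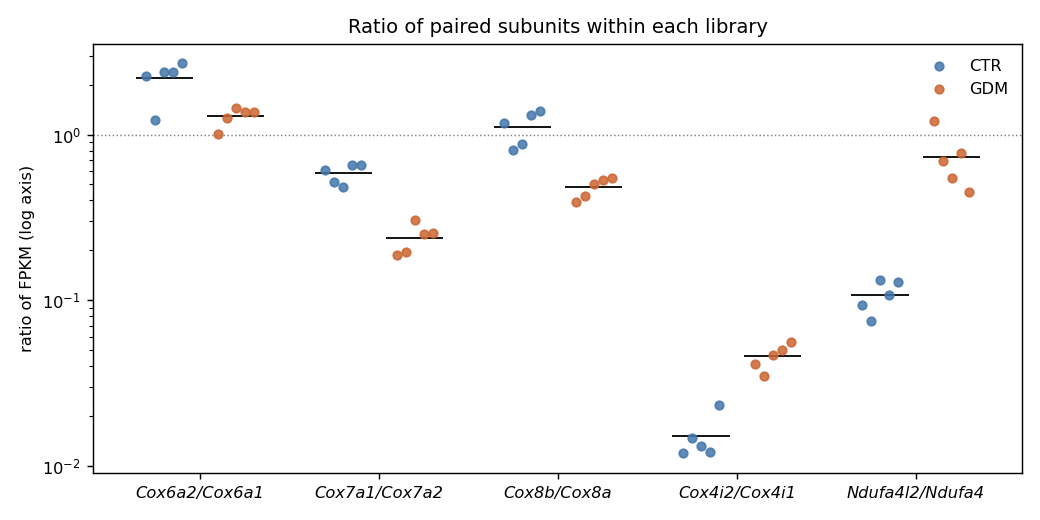
Ratio of FPKM (log axis) within each library for 5 pairs of subunits, with the 5 CTR and 5 GDM libraries as points and the group mean ratio as a bar. The dotted line marks equal FPKM. The 3 muscle isoforms sit lower relative to their partners in GDM, with CTR2 at 1.23 inside the GDM range for Cox6a2/Cox6a1, and Cox4i2 and Ndufa4l2 sit higher relative to theirs.

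The promoters of the muscle and general isoforms of subunits VIIa and VIII are shown here because these members of a pair moved apart. RefSeq promoter sequences (GRCm38.p6, 250 bases before to 50 after the start of the gene) were matched for 29 of the 42 genes (30 promoters). Cox6a2, Cox4i1, Cox4i2 and Ndufa4l2 were among the 13 without an entry. Each run is 300 bases, 5′ to 3′ on the strand of the gene, with CG dinucleotides in capitals.
Cox7a1, chr7:30183921-30184220, plus strand: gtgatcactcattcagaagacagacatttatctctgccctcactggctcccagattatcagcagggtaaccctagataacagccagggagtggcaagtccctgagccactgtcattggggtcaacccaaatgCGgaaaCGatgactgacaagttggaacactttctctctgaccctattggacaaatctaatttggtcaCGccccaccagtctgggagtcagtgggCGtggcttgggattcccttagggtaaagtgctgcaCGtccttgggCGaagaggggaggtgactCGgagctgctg
Cox8b, chr7:140900397-140900696, minus strand: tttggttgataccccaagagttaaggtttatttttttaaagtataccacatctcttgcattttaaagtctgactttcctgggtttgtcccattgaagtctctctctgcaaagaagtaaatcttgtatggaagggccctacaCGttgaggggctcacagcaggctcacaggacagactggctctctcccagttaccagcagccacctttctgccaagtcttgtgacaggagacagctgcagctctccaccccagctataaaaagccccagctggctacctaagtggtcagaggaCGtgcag
Cox7a2, chr9:79759804-79760103, minus strand: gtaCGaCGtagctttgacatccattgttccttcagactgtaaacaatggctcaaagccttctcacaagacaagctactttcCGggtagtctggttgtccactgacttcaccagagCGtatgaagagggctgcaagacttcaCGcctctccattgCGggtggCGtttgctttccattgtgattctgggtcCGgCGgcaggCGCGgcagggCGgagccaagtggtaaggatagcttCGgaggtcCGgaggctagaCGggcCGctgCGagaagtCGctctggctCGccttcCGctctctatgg
Cox8a, chr19:7217567-7217866, minus strand: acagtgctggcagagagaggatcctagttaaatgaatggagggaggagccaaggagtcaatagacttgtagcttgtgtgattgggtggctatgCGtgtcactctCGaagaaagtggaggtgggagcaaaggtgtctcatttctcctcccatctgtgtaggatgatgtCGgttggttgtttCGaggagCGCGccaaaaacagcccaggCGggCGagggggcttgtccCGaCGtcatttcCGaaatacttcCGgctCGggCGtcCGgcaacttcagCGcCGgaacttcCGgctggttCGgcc

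The muscle isoforms Cox7a1 and Cox8b have 7 and 2 CG dinucleotides in these windows, and their general partners Cox7a2 and Cox8a have 20 and 19. The median over 32851 RefSeq promoters is 7, and 23.3% of them have 2 or fewer. The 9 general subunits with an entry range from 5 to 35 (median 19) and the 15 assembly factors with an entry from 14 to 42 (median 22). These are features of the sequence, and no chromatin or methylation data were used here.

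Motifs were searched on both strands in all of these windows. CCGGAAG, a sequence that ETS family factors such as NRF-2 (GABP) bind, is found in 12 of the 30 promoters (40%) and in 8.86% of all promoters. It occurs in 8 of the 15 assembly factors, in 3 of the 9 general subunits (Cox6a1, Cox6b1 and Cox8a, where it occurs 2 times) and in neither Cox7a1 nor Cox8b. GGGCGG, bound by SP1, is found in 63.3% of the 30 promoters and 35.7% of all. AAGGTCA, bound by oestrogen-related receptors, is found in none of the 30 and in 4.72% of all. The E-box CANNTG, which myogenic factors bind, is found in 66.7% and 72.3%. The core of the hypoxia response element was searched as ACGTG, found in 23.3% of the 30 promoters and 19.6% of all, and as GCGTG, found in 53.3% and 32.4%. Cox4i2 and Ndufa4l2 had no promoter entry, so no motif was searched in them. The longer NRF1 and MEF2 motifs are found in 3.33% each of the 30 promoters, and in 4.60% and 3.69% of all. An ACGTG can lie inside an E-box, and no other motif spelled out here contains another. Several of these motifs contain CG, and the comparison with all promoters was not matched for CG content. A match is a description of the letters and not a site in use.

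The remaining general subunits fell by similar amounts. Cox6b1, which faces the intermembrane space near the docking site of cytochrome c, was the highest subunit and had 357.4 ± 21.6 FPKM in GDM and 530.5 ± 44.8 in CTR (SD, n = 5 each), a log2 fold change of -0.57 (limma adjusted p = 0.00017). Cox5a, which joins mt-Co1 early in assembly together with Cox4i1, changed by -0.56, and Cox5b, a subunit that binds zinc, by -0.64. Cox7b and Cox7c changed by -0.61 and -0.56. For each of these 5 genes every GDM library was below every CTR library, as was found for 7.43% of all tested genes. Their log2 fold changes lay between -0.69 and -0.48 in every leave-one-out run.

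Ndufa4 (ENSMUSG00000029632, chr6:11900292-11907497, minus strand) was first described in complex I and is now placed in cytochrome c oxidase, and it had the most negative log2 fold change of the general subunits. Its FPKM was 68.8, 87.7, 88.4, 87.9 and 123 in GDM1 to GDM5 and 186, 185, 114, 194 and 148 in CTR1 to CTR5. Of the GDM libraries only GDM5 lay above the lowest CTR library, CTR3. Ndufa4 changed by -0.85 on the log2 scale (SE 0.18, limma adjusted p = 0.0028).

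Cox4i1 (ENSMUSG00000031818, chr8:120668222-120674207, plus strand) encodes the general isoform of subunit IV, the largest nuclear subunit. It had 247, 278, 192, 197 and 163 FPKM in GDM1 to GDM5 and 411, 312, 218, 416 and 269 FPKM in CTR1 to CTR5. The groups overlapped, since GDM1 and GDM2 were above CTR3 and GDM2 was above CTR5 as well. The log2 fold change was -0.57 (SE 0.20, limma adjusted p = 0.040). The call was lost without CTR1, CTR2, CTR4, GDM3, GDM4 or GDM5, with adjusted p-values from 0.064 to 0.089. It was also lost after rescaling to the same sum over nuclear genes (adjusted p = 0.052) and with no filter on low values (adjusted p = 0.21).

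Cox6c fell by 0.43 on the log2 scale (SE 0.16, limma adjusted p = 0.045), from 51.5 ± 11.0 FPKM in CTR to 37.7 ± 5.45 in GDM (SD, n = 5 each). The groups overlapped, because CTR4 had 35.9 FPKM. The call was lost when any library except CTR4 or GDM3 was left out, with adjusted p-values up to 0.10, after rescaling to the same nuclear sum (adjusted p = 0.055) and with no filter (adjusted p = 0.23). Among the general subunits, Cox6a1 and Cox8a were thus the pair with no call, and the calls of Cox4i1 and Cox6c were lost when single libraries were left out.

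The order of the subunits by FPKM, which is a level per length, also differed between groups. In CTR, Cox6b1 was followed by Cox6a2 (381.8 ± 68.6), Cox4i1 (325 ± 87.2), Cox8b (309.6 ± 69.1) and Cox8a (281 ± 33.5), whose ranges overlapped. In GDM, Cox6b1 was followed by Cox8a (283.8 ± 15.3), Cox6a2 (227.3 ± 32.7) and Cox4i1 (215.4 ± 46.2), and Cox8b came to 136.5 ± 21.4 FPKM, near Cox7a2 (139.6 ± 13.9). The lowest mean was that of Cox6c in CTR and that of Cox7a1 in GDM, and in GDM the ranges of these 2 genes overlapped.

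Among the other isoforms and relatives, Ndufa4l2, Cox4i2 and Cox6b2 rose. Of the 6 genes in this group 4 passed the filter, 3 of these rose and none fell, beside 35.1% higher and 10.9% lower among all tested genes. After median ratio scaling 3 were called higher and 1, Cox7a2l, lower. Ndufa4l2 (ENSMUSG00000040280, chr10:127514967-127517154, plus strand) encodes a paralogue of NDUFA4 that is known as a target of the hypoxia-inducible factor HIF-1 and is also known from pericytes. It had 83.5, 60.7, 48.3, 67.8 and 55.2 FPKM in GDM1 to GDM5 and 17.3, 13.9, 15.1, 20.7 and 19.1 FPKM in CTR1 to CTR5. Every GDM library was above every CTR library, as was found for 27.2% of all tested genes. The means were 63.1 ± 13.5 and 17.2 ± 2.79 FPKM (SD, n = 5 each), and the log2 fold change was 1.80 (SE 0.15, limma adjusted p = 2.3e-05) and 1.63 after median ratio scaling.

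Summed pericyte markers were 79.9 to 92.4 FPKM in GDM and 92.1 to 123 FPKM in CTR. Of the 7 markers Rgs5 and Kcnj8 fell, Cspg4 rose (0.84) and 4 were not called, and after median ratio scaling 5 were called lower and 1 higher. Of the 5 chondrocyte markers tested 4 rose, among them Col2a1 (1.66) and Acan (1.32). The summed FPKM of all 8 listed chondrocyte markers was 28.3 to 56.3 in GDM and 9.46 to 22.6 in CTR. Among all tested genes 10.9% were called lower and 35.1% higher, and 18.9% and 19.7% after median ratio scaling. Of the 6 heart markers 2 were tested. Myl4, which foetal skeletal muscle also expresses, rose (0.79), and Myh6 was not called (-0.07). The part of these cell types in the change of Ndufa4l2 was not tested. Ndufa4l2 shares 32 exonic bases with Shmt2 on the opposite strand.

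The ratio of Ndufa4l2 to Ndufa4 was 1.21, 0.692, 0.546, 0.772 and 0.447 in GDM1 to GDM5 and 0.0930, 0.0752, 0.132, 0.107 and 0.129 in CTR1 to CTR5. No library of one group lay in the range of the other, and in GDM1 the FPKM of Ndufa4l2 was above that of Ndufa4. The difference in log2 was 2.65 (SE 0.28, exact permutation p = 0.0079, adjusted p = 0.0099).

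Cox4i2 (ENSMUSG00000009876, chr2:152754173-152765037, plus strand) encodes the isoform of subunit IV that is best known from lung and from cells at low oxygen. Its FPKM was 10.2, 9.69, 8.94, 9.80 and 9.15 in GDM1 to GDM5 and 4.87, 4.58, 2.86, 5.02 and 6.27 in CTR1 to CTR5. All GDM libraries were above all CTR libraries, and the coefficient of variation was 5.24% in GDM and 25.9% in CTR. Cox4i2 changed by 0.91 on the log2 scale (SE 0.14, limma adjusted p = 0.00048).

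Cox4i2 remained far below Cox4i1. The ratio of Cox4i2 to Cox4i1 was 0.0412, 0.0348, 0.0465, 0.0497 and 0.0561 in GDM1 to GDM5 and 0.0118, 0.0147, 0.0131, 0.0121 and 0.0233 in CTR1 to CTR5, without overlap. The difference in log2 was 1.48 (SE 0.20, exact permutation p = 0.0079, adjusted p = 0.0099). Cox4i2 was thus 3.36 to 5.32% of the pair in GDM and 1.17 to 2.28% in CTR.

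Cox6b2, the isoform of subunit VIb known from testis, had 9.28, 9.35, 6.08, 9.06 and 6.98 FPKM in GDM1 to GDM5 and 5.05, 5.34, 5.37, 3.25 and 5.81 FPKM in CTR1 to CTR5. It rose without overlap of the groups, by 0.62 on the log2 scale (SE 0.15, limma adjusted p = 0.0068). With no filter on low values its adjusted p was 0.053. Cox7a2l, a relative of subunit VIIa that joins complexes III and IV in supercomplexes, had the lowest log2 fold change of the group. It had 93.2, 105, 104, 111 and 98.1 FPKM in GDM1 to GDM5 and 97.6, 119, 109, 103 and 111 FPKM in CTR1 to CTR5. These ranges overlapped, and the log2 fold change of -0.08 (95% interval -0.23 to 0.08) was not called, but it was -0.26 (limma adjusted p = 0.020) after median ratio scaling. Cox7b2 and Cox8c, isoforms known from testis, were listed at the no-signal value in all 10 libraries.

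**Figure D4:**
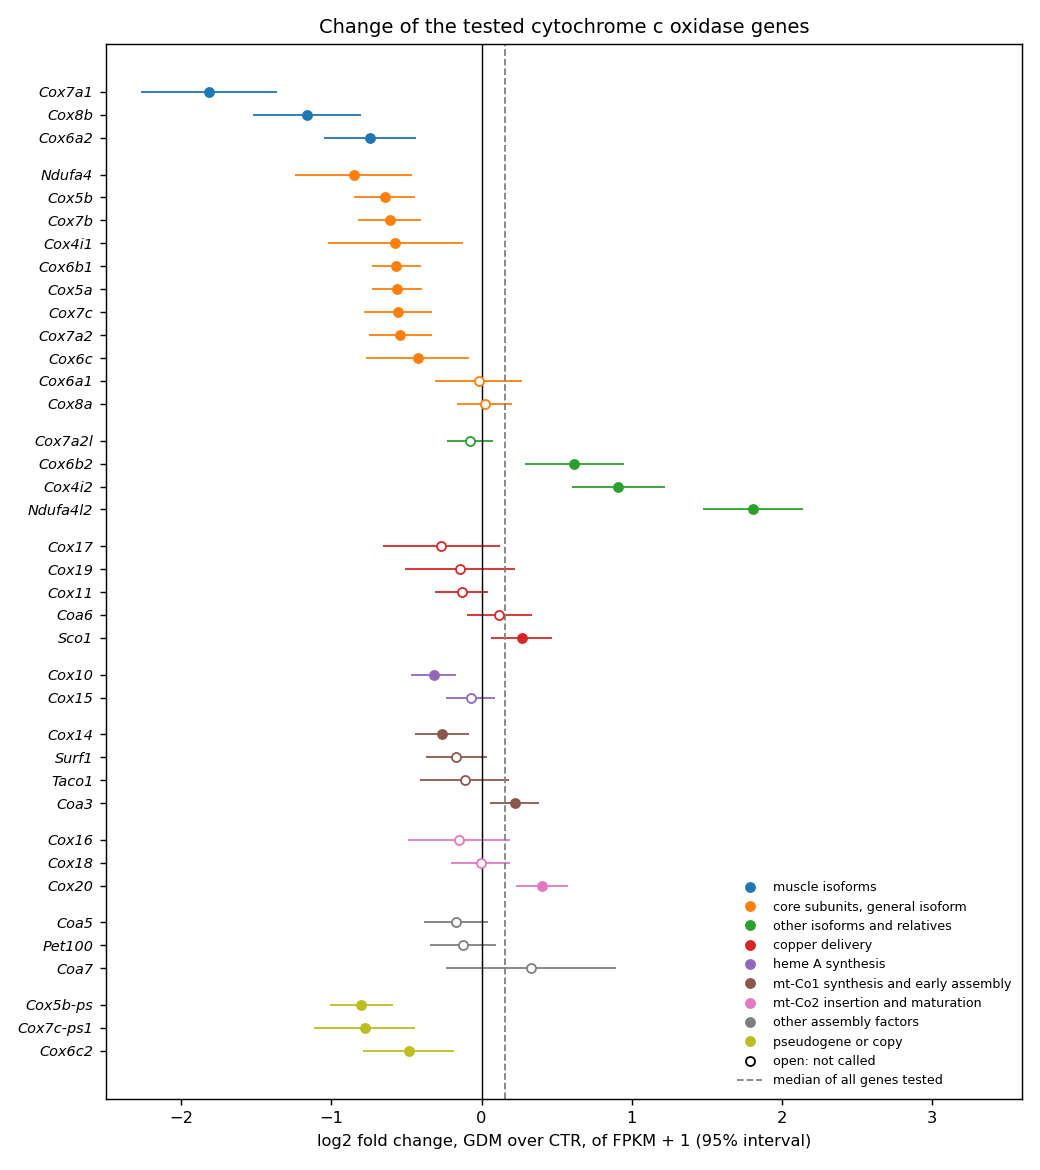
Log2 fold change of GDM over CTR for the 38 tested genes by role, on the scale of log2(FPKM + 1), with 95% intervals from limma. Filled points were called and open points were not, the solid line is 0 and the dashed line the median of all tested genes, 0.15. The muscle isoforms reach -1.81, the general subunits lie between -0.85 and 0.02, and the assembly factors between -0.32 and 0.40.

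The assembly factors moved little. Of 18 in the list 17 were tested, of which 2 fell, 3 rose and 12 were not called, with a median log2 fold change of -0.12. Over all tested genes 10.9% were called lower and 35.1% higher. After median ratio scaling 7 fell and 0 rose, with a median of -0.28, where 18.9% of all genes were called lower and 19.7% higher, so the calls depended on the scaling. Coa6, which was called in neither case, was the 1 factor whose sign changed. Their summed FPKM was 187 to 212 in GDM and 197 to 206 in CTR.

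In heme A synthesis, Cox10 makes heme O from heme B and Cox15 turns heme O into heme A. Cox10 had 5.71, 6.71, 6.59, 6.66 and 6.86 FPKM in GDM1 to GDM5 and 8.95, 8.90, 8.05, 8.58 and 7.36 FPKM in CTR1 to CTR5. The groups did not overlap, and Cox10 fell by 0.32 on the log2 scale (SE 0.07, limma adjusted p = 0.0034), with -0.48 after median ratio scaling. Cox15 had 8.58, 8.91, 8.30, 8.87 and 10.02 FPKM in GDM1 to GDM5 and 10.6, 8.23, 9.39, 10.1 and 8.94 FPKM in CTR1 to CTR5. These ranges overlapped and the log2 fold change of -0.07 was not called, but it was -0.24 (limma adjusted p = 0.034) after median ratio scaling.

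In copper delivery, Sco1 passes copper to mt-Co2. It had 4.81, 4.24, 3.74, 4.15 and 4.82 FPKM in GDM1 to GDM5 and 3.50, 3.90, 3.82, 2.73 and 3.33 FPKM in CTR1 to CTR5. Only GDM3 fell inside the CTR range, and Sco1 rose by 0.27 (SE 0.09, limma adjusted p = 0.034). That call was lost after median ratio scaling (0.12, limma adjusted p = 0.32) and after quantile normalization. The call was also lost without CTR1, CTR4, CTR5, GDM1, GDM2 or GDM5, with limma adjusted p-values from 0.053 to 0.078.

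Cox17, the chaperone that hands copper to Sco1 and Cox11, had the most negative value of this group. It had 3.91, 2.93, 4.61, 3.83 and 3.05 FPKM in GDM1 to GDM5 and 3.32, 3.54, 6.90, 4.12 and 5.74 FPKM in CTR1 to CTR5. The groups overlapped and the log2 fold change of -0.27 (95% interval -0.66 to 0.12) was not called. Cox17 shares 257 exonic bases with another gene on its own strand, Gm21987, so its reads may be split. Cox11 (-0.13), Cox19 (-0.15) and Coa6 (0.12) were not called either, but Cox11 was -0.29 (limma adjusted p = 0.014) after median ratio scaling. Sco2 was below the filter, with 0.481 to 0.898 FPKM in GDM and 0.777 to 2.23 FPKM in CTR, and shares 856 exonic bases with Tymp on its own strand.

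Among the factors for mt-Co1, Coa3 and Cox14 form an early complex with newly made mt-Co1. Coa3 had 47.0, 50.2, 47.1, 54.5 and 45.8 FPKM in GDM1 to GDM5 and 42.3, 39.0, 37.9, 42.7 and 47.3 FPKM in CTR1 to CTR5. The groups overlapped at CTR5, and Coa3 rose by 0.22 (SE 0.07, limma adjusted p = 0.030). That call was lost after median ratio scaling (0.04, limma adjusted p = 0.67) and without CTR2, CTR3, GDM2 or GDM4, with adjusted p-values from 0.063 to 0.072.

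Cox14 went the other way, with 20.5, 25.7, 24.4, 28.5 and 25.8 FPKM in GDM1 to GDM5 and 29.0, 30.7, 28.1, 30.0 and 32.6 FPKM in CTR1 to CTR5. Only GDM4 was above the lowest CTR library, and the log2 fold change was -0.26 (SE 0.08, limma adjusted p = 0.023), with an adjusted p of 0.053 without CTR5. Surf1, a factor for early assembly whose loss causes Leigh syndrome in humans, and Taco1, an activator of mt-Co1 translation, changed by -0.17 and -0.11 and were not called. Surf1 was -0.33 (limma adjusted p = 0.013) after median ratio scaling.

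Of the factors for mt-Co2, Cox20, a chaperone of newly made mt-Co2, was the one that rose. It had 25.6, 24.5, 26.9, 26.9 and 24.8 FPKM in GDM1 to GDM5 and 18.4, 20.3, 19.1, 16.4 and 22.5 FPKM in CTR1 to CTR5. The groups did not overlap, and the log2 fold change was 0.40 (SE 0.08, limma adjusted p = 0.0019) and 0.23 (limma adjusted p = 0.0504) after median ratio scaling. Cox20 shares 804 exonic bases with Hnrnpu on the opposite strand, and use of strand information in counting is not given.

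Cox16 had the lowest log2 fold change of the mt-Co2 factors. It had 3.38, 5.91, 6.93, 6.84 and 5.78 FPKM in GDM1 to GDM5 and 5.52, 6.60, 6.37, 6.01 and 7.44 FPKM in CTR1 to CTR5, with GDM1 far below the others. The log2 fold change of -0.15 (95% interval -0.49 to 0.19) was not called, and 2130 of its exonic bases are shared with Gm20498 on its own strand. Cox18, which inserts the tail of mt-Co2 into the membrane, did not pass the test at -0.00 (95% interval -0.20 to 0.19).

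The 3 other factors were not called in the unscaled values. Coa7 had the highest log2 fold change of them, 0.33 (95% interval -0.23 to 0.89), with 1.78, 4.02, 3.48, 4.02 and 4.39 FPKM in GDM1 to GDM5 and 3.49, 3.45, 3.66, 1.44 and 1.37 FPKM in CTR1 to CTR5. Its libraries were spread widely within both groups. Coa5 had the lowest, -0.17 (95% interval -0.39 to 0.04), with 12.7, 14.6, 14.2, 13.4 and 14.0 FPKM in GDM1 to GDM5 and 17.1, 18.0, 17.0, 14.6 and 12.2 FPKM in CTR1 to CTR5. CTR5 was the lowest of all libraries, and without it Coa5 was -0.25 (limma adjusted p = 0.016). Pet100 changed by -0.12 and was not called. After median ratio scaling both Coa5 (-0.34, limma adjusted p = 0.019) and Pet100 (-0.28, limma adjusted p = 0.038) were called lower.

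The 4 copies are uncertain, since the reads of near-identical sequences can be split between a gene and its copy. Cox5b-ps and Cox7c-ps1, copies of Cox5b and Cox7c, changed by -0.80 and -0.78, and Cox6c2, a copy of Cox6c, by -0.48, all called lower. Over all tested genes 10.9% were called lower and 35.1% higher. The calls of these copies are counted in the set and may repeat those of Cox5b, Cox7c and Cox6c. Cox5b-ps had 54.4, 65.9, 66.0, 65.5 and 53.3 FPKM in GDM1 to GDM5 and 99.1, 105, 95.5, 111 and 126 FPKM in CTR1 to CTR5. It stood at 0.592 to 0.707 of the FPKM of Cox5b in GDM and at 0.630 to 0.791 in CTR, so the copy and its parent kept overlapping ratios. Cox6c2 had 12.2, 12.1, 16.3, 16.4 and 18.2 FPKM in GDM1 to GDM5 and 21.8, 16.2, 23.0, 24.7 and 21.1 FPKM in CTR1 to CTR5, with CTR2 inside the GDM range. Cox20b was below the filter, at 0.0001 to 0.376 FPKM in GDM and 0.0001 to 0.449 in CTR.

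Over all 38 tested genes of the set, 17 fell, 6 rose and 15 were not called, with a median log2 fold change of -0.17, beside 10.9% lower and 35.1% higher among all tested genes. After median ratio scaling 23 fell and 3 rose, namely Cox4i2, Cox6b2 and Ndufa4l2, beside 18.9% lower and 19.7% higher among all. Every GDM library was below every CTR library in 11 of the genes (7.43% of all tested genes) and above in 4 (27.2%). Cox7a1 and Cox8b were called with a log2 fold change of -1 or less, as were 1.56% of all tested genes, and Ndufa4l2 with one of 1 or more, as were 1.54%.

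The mitochondrially encoded core moved with the nuclear subunits. mt-Co1, which holds both heme groups, had 6992 ± 722 FPKM in GDM and 12360 ± 1089 in CTR (SD, n = 5 each), a log2 fold change of -0.82 (SE 0.09, limma adjusted p = 7.7e-05). mt-Co2 and mt-Co3 changed by -0.60 and -0.62. All 3 had GDM libraries below all CTR libraries, as did 7.43% of all tested genes.

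Of 15 further biogenesis factors tested 3 fell, 3 rose and 9 were not called, beside 10.9% lower and 35.1% higher among all tested genes. Those that fell were Cycs (-0.74), the somatic cytochrome c, Apopt1 (-0.32), also named Coa8, and Higd2a (-0.23). Those that rose were Fdxr (0.43), which supplies electrons for heme A synthesis, Higd1a (0.35) and Cmc2 (0.32), and of these only Fdxr was called higher after median ratio scaling.

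Subunits of the other complexes gave values close to those of the 14 subunits of cytochrome c oxidase (12 of 14 lower, median -0.57). All 9 subunits of complex III fell, with a median log2 fold change of -0.58, and all 4 of complex II, with a median of -0.53. Of complex I 34 of 36 fell (median -0.50), and of ATP synthase 16 of 17 (median -0.47). In none of these lists did a subunit rise, while among all tested genes 10.9% were called lower and 35.1% higher. The differences between the complexes were not tested.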

How the data were processed

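RNA-seq of limb muscle from 5 GDM and 5 CTR foetuses was used. The libraries were of poly(A) RNA, marked one strand with dUTP and were sequenced as PE150. The deposited table gives a single FPKM value per gene and library, which the authors made by mapping with HISAT2 2.0.4 and quantifying with StringTie 1.3.4d, according to the submitters' processing notes, where edgeR and DESeq2 are listed too, with no role given. The authors' own fold change, its log2 value, and their p-value and q-value columns were not used. Strand use in counting is not given in the sources used here. Coordinates and transcripts came from GENCODE vM21 (GRCm38), in which 55141 of 55401 gene identifiers and all 42 genes of the set were found.

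Genes with at least 1 FPKM in at least 5 libraries were tested on log2(FPKM + 1) with limma 3.58.1 (trend, robust; R 4.3.3, data.table version 1.17.8), with Benjamini-Hochberg adjustment over 13363 genes and a call at an adjusted p under 0.05. Ratios of paired subunits were compared with two-sided exact permutation tests (Python 3.11.15, scipy 1.17.1, numpy 2.4.6, pandas 2.3.3, matplotlib 3.10.9) and adjusted over 5 ratios. The fit was tested on simulated data. The depth was estimated from what 1 fragment is worth in genes with a single transcript. As this is an estimate, counting intervals were not computed.

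Groups were taken from the sample titles. Values in every library are given for the isoform pairs and for the tested gene with the highest and lowest log2 fold change in each role group, and other genes by means, counts or ranges. Any further gene was named with its values known. The genes and lists were chosen with earlier results of these data known. Alternative settings were a pseudocount of 0.1, no filter, median ratio scaling, rescaling to the same sum over nuclear genes, quantile normalization, a block for the replicate number, and omission of each library in turn. Overlap of exons was counted in bases from the annotation, and 17 of the 42 genes share exonic bases with another gene, 15 of them on the opposite strand and 3 on the same strand.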

Additional observations from a re-analysis of the deposited data

Results flagged for a closer look

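Single libraries set apart from the other 4 of their group were looked for with Dixon's test (critical value 0.71) in 86 groups of values, where chance gives about 4.3. There were 6. In GDM1, Cox6a2 had 170.2 FPKM against 235 to 251.7 in the other GDM libraries, Cox7a2 had 116 FPKM against 142 to 149.5, and Cox10 had 5.71 FPKM against 6.59 to 6.86. In CTR5, Cox7a2 had 244 FPKM against 188 to 201 in the other CTR libraries. In GDM2, Cox19 had 3.99 FPKM against 7.40 to 8.10. In CTR2, the log2 ratio of Cox6a2 to Cox6a1 was 0.30 against 1.17 to 1.42.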

How the results depend on the processing

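The number of genes of the set called lower, 17, came to between 13 and 23 in all 16 alternatives, and to 15 or 16 when a library was left out. The number called higher, 6, fell to 3 after median ratio scaling and to 3 with no filter on low values, and was 4 to 6 when a library was left out. Over all genes, 76.4% of calls were higher in the unscaled values, 51.0% after median ratio scaling and 55.1% after quantile normalization, and lower calls went from 1451 to 2529 after median ratio scaling. The difference of the Cox6a2/Cox6a1 log2 ratio was -0.92 to -0.64 when a library was left out, with exact permutation p from 0.0079 to 0.056. The other 4 ratios kept direction and p in every alternative run.

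Changes of sign occurred in genes that were not called. After median ratio scaling and quantile normalization Cox8a was -0.16 and -0.12 and Coa6 -0.048 and -0.030. After rescaling to the same nuclear sum Cox6a1 was 0.022 and Cox18 0.026. When a library was left out, Cox6a1 ranged from -0.097 to 0.11, Cox8a from -0.014 to 0.083, Cox18 from -0.058 to 0.032 and Cox19 from -0.20 to 0.021.

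Libraries of the same replicate number did not deviate together (correlations of -0.07 to -0.02), and the labels do not say what the numbers stand for. With the replicate block, 16 genes of the set were called lower and 4 higher, beside 1269 lower and 4171 higher among all 13363 tested genes. Cox6c, Sco1 and Coa3 were then not called (limma adjusted p = 0.086, 0.066 and 0.068). With no filter, 7 genes lost their call, namely Cox4i1, Cox6c, Cox14, Cox6c2, Cox6b2, Sco1 and Coa3 (limma adjusted p from 0.053 to 0.23). In that run 1201 of all 55401 genes were called lower and 3935 higher. No gene of the set changed its call with a pseudocount of 0.1. Depth limits the genes near 1 FPKM, and Sco2 and Cox20b were not tested. The causes of these shifts were not tested.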
